A study of Mus musculus with 12 samples.

Results

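The chemokine receptor genes Ccr9, Cxcr4 and Ccr7 and the chemokine gene Ccl25 were followed in the thymus of C57Bl/6 mice, 4 genes of 8251 measured. Each has 1 probe set on the array that is annotated to it alone, and all 4 probe sets were kept, of 12422 tested. There were 12 arrays. In 8 of them the RNA came from leukemic cells of terminally ill mice with the genotype TEL-JAK2, an oncogenic fusion of the transcription factor TEL (Etv6) with the kinase Jak2. The other 4 arrays held RNA of thymocytes from wild-type animals 2 months old. Neither the age of the leukemic mice nor the promoter that drives the fusion is stated in the sources used here. Both kinds of sample were whole thymus cell suspensions made by mechanical dissociation in the cold, without a sort in the labels, so that they can hold stromal and myeloid cells. Nothing but a number in most titles says that arrays came from separate animals, and the p-values rest on the spread among these arrays, which may be technical. Of all probe sets 14.5% passed the group test.

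Chemokines are small secreted proteins that direct cell movement through receptors coupled to inhibitory G proteins. Ccr9 is the receptor of Ccl25, which is made by thymic epithelium and in the small intestine, and it is abundant on thymocytes that carry both Cd4 and Cd8. Cxcr4 binds Cxcl12, holds immature thymocytes in the cortex and acts beside the pre-T-cell receptor. Ccr7 binds Ccl19 and Ccl21, and in the thymus it appears after positive selection, when cells move to the medulla.

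The promoters of the 3 genes that were lower in leukemia are shown because in each of them every leukemia lay below every thymocyte array. RefSeq windows (GRCm38.p6) were found for Ccr9, Cxcr4 and Ccl25, and none was printed for Ccr7. Each run gives the 250 bases before an annotated start, 5′ to 3′ on the gene's strand, and capitals mark matches to the E-box CANNTG, the sequence bound by E proteins of T-cell development. The windows lie at chr9:123766961-123767210 on the plus strand for Ccr9, chr1:128592300-128592549 on the minus strand for Cxcr4 and chr8:4349338-4349587 on the plus strand for Ccl25.
Ccr9: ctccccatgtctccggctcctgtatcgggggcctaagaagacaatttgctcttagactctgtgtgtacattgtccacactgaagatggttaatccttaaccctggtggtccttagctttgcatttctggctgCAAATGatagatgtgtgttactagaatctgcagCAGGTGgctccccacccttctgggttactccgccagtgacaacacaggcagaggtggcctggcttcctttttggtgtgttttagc
Cxcr4: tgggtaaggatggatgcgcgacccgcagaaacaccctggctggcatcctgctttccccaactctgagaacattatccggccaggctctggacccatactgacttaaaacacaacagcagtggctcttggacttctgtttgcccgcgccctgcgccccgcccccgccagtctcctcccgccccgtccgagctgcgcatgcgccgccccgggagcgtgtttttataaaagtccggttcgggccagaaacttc
Ccl25: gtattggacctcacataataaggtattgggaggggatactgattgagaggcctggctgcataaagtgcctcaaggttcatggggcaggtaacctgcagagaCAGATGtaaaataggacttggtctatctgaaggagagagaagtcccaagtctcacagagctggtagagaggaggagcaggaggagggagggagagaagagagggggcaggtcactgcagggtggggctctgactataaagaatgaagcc

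Ccr9 holds 2 E-box matches in this window, which begin at -118 and -85 from the start, Ccl25 holds 1 (at -149), and Cxcr4 holds 0. A match to CANNTG was present in 66.2% of 32851 RefSeq windows of this length. The Runx motif TGTGGT (14% of windows, both strands) and the STAT motif TTCNNNGAA (7.02%) had no match in these 3 windows or in a second window of Ccl25 at an upstream start, which also held no E-box. The searched motifs do not overlap in these windows, and a match describes letters only.

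Of the 4 genes Ccr9 had the largest difference between leukemia and thymocytes. Its probe set read 4.97, 7.59, 7.88, 8.16, 7.36, 6.72, 6.23 and 6.58 on the log2 scale in leukemias 1 to 8, against 9.87, 9.90, 9.79 and 9.64 in thymocyte arrays 1 to 4. Every leukemia lay below every thymocyte array, and the closest pair, leukemia 4 and thymocyte array 4, was still 1.48 apart. Ccr9 averaged 6.94 ± 1.04 (SD, n = 8) in leukemias and 9.80 ± 0.11 (SD, n = 4) in thymocytes. It fell 7.28-fold (95% interval 3.65 to 14.5), a log2 difference of -2.86 with an SE of 0.46 (limma adjusted p = 0.000927 over all probe sets). The level in leukemia 1 was under the 95th percentile of the non-mouse control probe sets, which was 5.54 on that array, whereas the other 7 leukemias lay above the percentile of their own array. These are bulk samples, in which fewer cells of a type and less RNA per cell cannot be told apart.

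**Figure D1:**
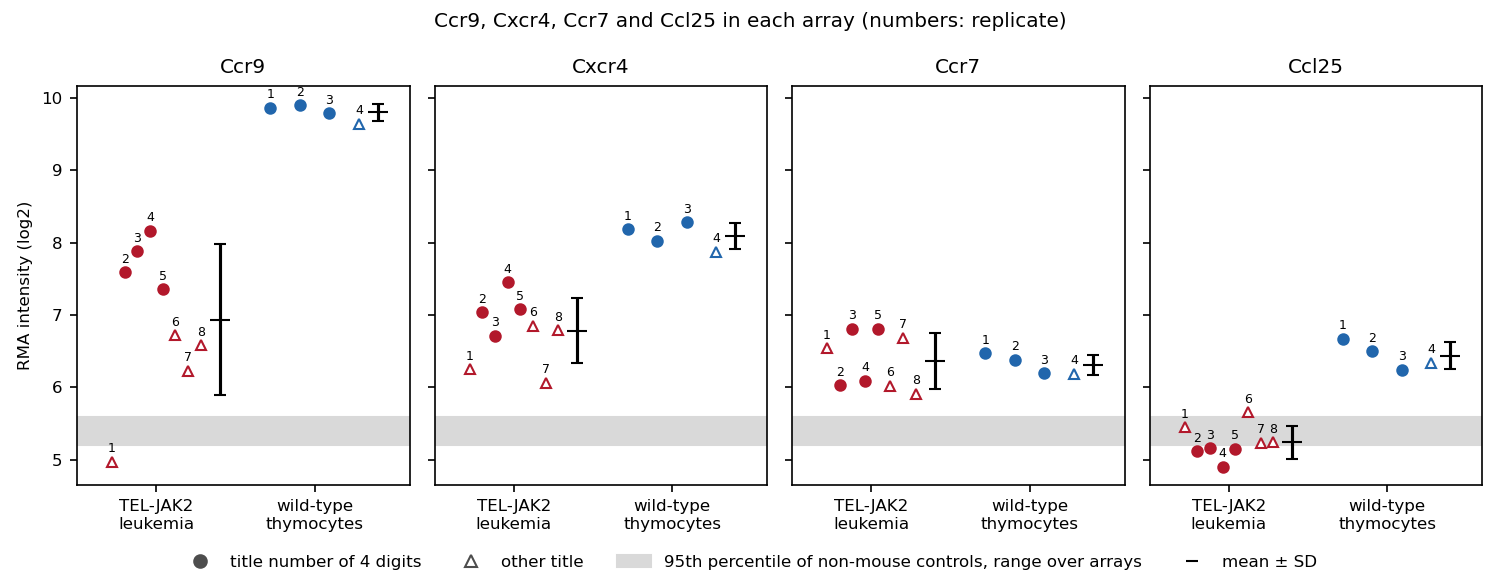
RMA intensity (log2) of Ccr9, Cxcr4, Ccr7 and Ccl25 in the 8 TEL-JAK2 leukemia arrays (red) and the 4 wild-type thymocyte arrays (blue), with the replicate number at each point and the group mean ± SD in black. Filled circles mark titles with a number of 4 digits, open triangles other titles, and the grey band spans the 95th percentiles of the non-mouse controls over arrays (5.20 to 5.59). The leukemias lie below all thymocyte arrays for Ccr9, Cxcr4 and Ccl25, and on both sides of them for Ccr7.

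The leukemias were not uniform in Ccr9. They covered 3.19 log2 units, and their SD of 1.04 compares with 0.11 in thymocytes. The 4 leukemias whose titles carry a number of 4 digits (2, 3, 4 and 5) read 7.36 to 8.16 and the other 4 read 4.97 to 6.72, without overlap. That difference among leukemias was 1.62 (SE 0.36, limma adjusted p = 0.0401 over all genes), in a comparison in which 5.28% of genes passed. No source used here says what the title number stands for. With the title number as a block the leukemia minus thymocyte difference in Ccr9 was -2.55 (SE 0.33, limma adjusted p = 0.000224 over all probe sets). Within arrays with a 4-digit number it was -2.10 (4 arrays against 3, limma adjusted p = 0.000138), and within the others it was -3.52 (4 against 1, limma adjusted p = 0.132).

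Ccl25, the ligand of Ccr9, was lower in leukemia as well and sat close to the control level there. Its probe set read 5.45, 5.12, 5.16, 4.90, 5.15, 5.66, 5.23 and 5.24 in leukemias 1 to 8, against 6.67, 6.50, 6.24 and 6.34 in thymocyte arrays 1 to 4. No leukemia reached the lowest thymocyte array. The means were 5.24 ± 0.23 (SD, n = 8) in leukemias and 6.44 ± 0.19 (SD, n = 4) in thymocytes, a log2 difference of -1.20 (SE 0.12, limma adjusted p = 3.1e-05 over all probe sets). Since the leukemia mean lay under the mean control percentile of 5.37, the fall is given as at least 2.03-fold. The order of the leukemias in Ccl25 is not read further, as 6 of the 8 values were under the control percentile of their own array.

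Thymic epithelium, the best known source of Ccl25, was represented by 15 other measured marker genes, of which 1 was higher in leukemia, 2 were lower and 12 did not pass the test. Without leukemia 3, 4, 5 or 6, or any single thymocyte array, 1 was lower. With Ccl25 counted, 25% of the measured list was called, beside 17.3% over all genes. The summed intensity of the 15 other genes was 897 to 1145 in leukemias and 1059 to 1102 in thymocytes. The epithelial transcription factor gene Foxn1 was near the control level in both groups (log2 difference -0.01), and the keratin genes Krt5 (0.07) and Krt8 (-0.09) did not pass. Aire, a regulator of medullary epithelium, was just past the threshold (-0.23, limma adjusted p = 0.0471 over all genes) and missed it over all probe sets, with an adjusted p of up to 0.168 when single arrays were left out. The keratin gene Krt18 fell (-0.40) and the adhesion gene Epcam rose (1.37), both near the control level in both groups. Among the other cells looked at, 4 of 10 measured neutrophil markers also fell (40% called, beside 17.3% over all genes). They were S100a8 (-1.66), Camp (-0.49) and, near the control level in leukemias, S100a9 (at least 1.29-fold) and Ngp (at least 1.49-fold). The summed intensity of all 10 was 475 to 622 in leukemias and 686 to 834 in thymocytes. The part of either cell type in the Ccl25 difference was not tested.

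Cxcr4 was lower in every leukemia too, with a smaller fold change. Its probe set read 6.25, 7.04, 6.71, 7.45, 7.07, 6.85, 6.06 and 6.79 in leukemias 1 to 8, against 8.18, 8.03, 8.28 and 7.87 in thymocyte arrays 1 to 4. The groups did not overlap, with 0.42 between leukemia 4 and thymocyte array 4. The means were 6.78 ± 0.45 (SD, n = 8) in leukemias and 8.09 ± 0.18 (SD, n = 4) in thymocytes, a 2.48-fold fall (95% interval 1.81 to 3.40, log2 difference -1.31, SE 0.21, limma adjusted p = 0.000897 over all probe sets). Against a change of 1.5-fold rather than none, Cxcr4 did not pass (limma treat, adjusted p = 0.149), while Ccr9 and Ccl25 did. With the title number as a block the difference was -1.19 (limma adjusted p = 0.000401), and within title-number groups it was -1.09 (4 arrays against 3, adjusted p = 0.0024) and -1.39 (4 against 1, adjusted p = 0.207). Among leukemias the 4-digit titles were 0.58 higher (SE 0.21, limma adjusted p = 0.130 over all genes). Cxcl12, the ligand of Cxcr4, had means of 5.53 ± 0.16 (SD, n = 8) in leukemias and 5.62 ± 0.23 (SD, n = 4) in thymocytes and did not pass (log2 difference -0.09, SE 0.11).

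Across the 8 leukemias Ccr9 and Cxcr4 were correlated, and a test within title-number groups did not pass. Pearson's r was 0.793 (exact permutation p = 0.0196, two-sided, adjusted 0.0196 over 3 relations computed) and Spearman's rho was 0.714 (exact permutation p = 0.0576, adjusted 0.0576). With leukemias 1 and 4 removed, which lay farthest from the Ccr9 median, r was 0.625. A correlation was given only where the largest gap between neighbouring leukemias stayed within 40% of the range. Ccr9 was just inside this limit (39.4%, with leukemia 1 apart). Leukemias 1 and 7 had the lowest Cxcr4 and the lowest Ccr9, and leukemia 4 the highest of both. With each title-number group centred on its own mean, r was 0.539 (exact permutation within groups, p = 0.248, two-sided). Within the 4-digit titles r was 0.359 and within the others it was 0.622 (n = 4 each). With so few leukemias per group this test cannot decide whether the relation holds within groups. The test was added after the data were seen. The means of both genes were higher in the 4-digit titles (7.75 against 6.12 for Ccr9, 7.07 against 6.49 for Cxcr4).

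Leukemias with the least Ccr9 also had the least RNA of other genes of double-positive thymocytes. The mean log2 level of 13 such genes was 7.31 and 7.81 in leukemias 1 and 7 and 8.65 to 9.19 in the other 6, against 9.82 to 10.03 in thymocytes. As leukemias 1 and 7 form a cluster of their own on this measure (largest gap 44.9% of the range, limit 40%), no correlation is given. Rag1, a subunit of the recombinase of antigen receptor genes, read 4.86 in leukemia 1 and 7.99 in leukemia 7, and 9.93 to 11.06 in the other leukemias, against 11.83 to 11.99 in thymocytes. Its group difference (-2.50, SE 0.92) did not pass. Of the 13 genes 7 fell, among them Cd4 (-1.89), Rag2 (-2.39) and Ets2 (-2.88), and 0 rose. This is a share of 53.8% called beside 17.3% over all genes, and the list was chosen with earlier results of these data known. The count that fell was 5 to 9 with 1 array left out. The Cd8 genes Cd8a (-0.45) and Cd8b1 (-0.49) did not pass. Both were bright, with means of 11.13 and 11.59 in leukemias against 11.58 and 12.07 in thymocytes. General T-cell markers were bright in both groups: Cd3e averaged 10.98 ± 0.34 (SD, n = 8) in leukemias and 11.18 ± 0.07 (SD, n = 4) in thymocytes. Of 8 measured genes Cd2 rose, Cd247 fell and 6 did not pass (25% called, beside 17.3% over all genes).

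**Figure D2:**
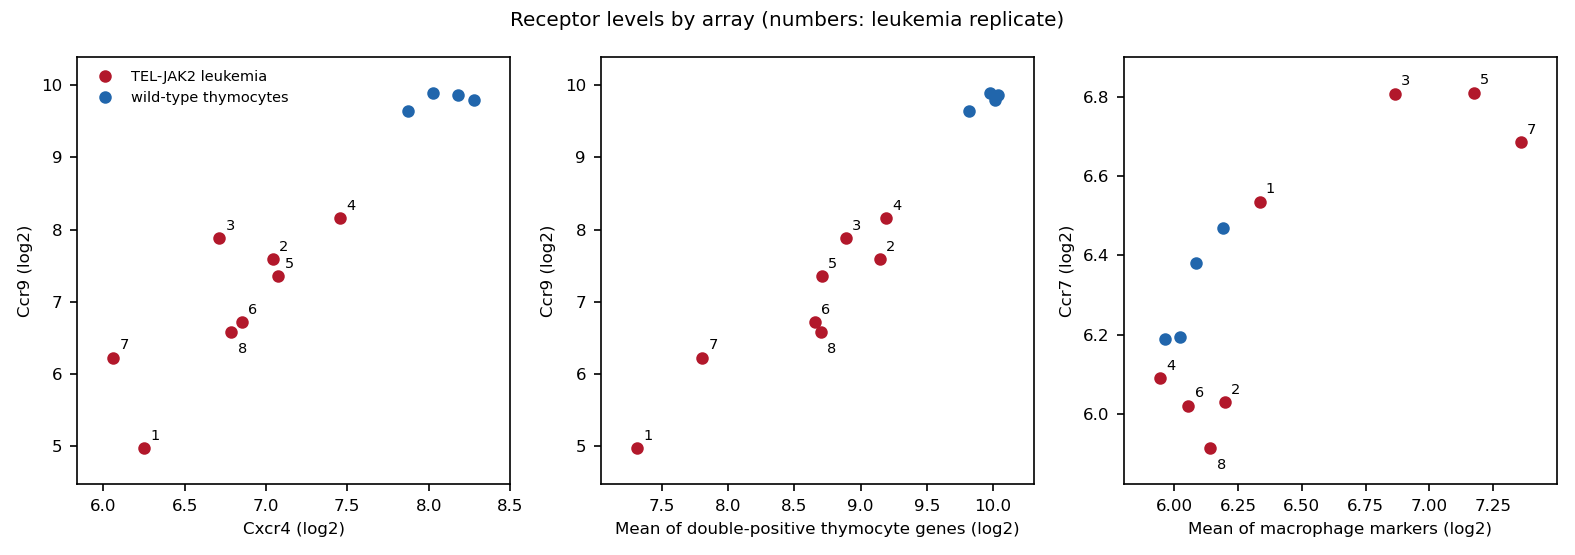
Each point is 1 array, red for TEL-JAK2 leukemia (numbered by replicate) and blue for wild-type thymocytes, on log2 scales. The left panel plots Ccr9 against Cxcr4, the middle panel Ccr9 against the mean of 13 double-positive thymocyte genes, and the right panel Ccr7 against the mean of 14 macrophage markers. Leukemias 1 and 7 are lowest in the first 2 panels, and leukemias 1, 3, 5 and 7 lie above the thymocyte arrays in Ccr7.

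Ccr7 did not pass the group test and had a wider spread among leukemias than among thymocyte arrays. Its probe set read 6.54, 6.03, 6.81, 6.09, 6.81, 6.02, 6.69 and 5.91 in leukemias 1 to 8, against 6.47, 6.38, 6.19 and 6.19 in thymocyte arrays 1 to 4. Leukemias 1, 3, 5 and 7 were above all thymocyte arrays, leukemias 2, 4, 6 and 8 were below all of them, and none lay between. The means were 6.36 ± 0.39 (SD, n = 8) in leukemias and 6.31 ± 0.14 (SD, n = 4) in thymocytes, a log2 difference of 0.05 (SE 0.18, 95% interval -0.34 to 0.44, limma adjusted p = 0.899 over all probe sets). The sign turned when leukemia 3 or leukemia 5 was left out (-0.011 each). Both title-number groups held leukemias of either kind, and their difference was 0.15 (SE 0.24, limma adjusted p = 0.746 over all genes).

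Markers of other cells that carry Ccr7 or accompany them were read in the same arrays. The summed intensity of 14 macrophage markers was 1762, 3227, 4453 and 5181 in leukemias 1, 3, 5 and 7 and 1733, 1221, 1449 and 1450 in leukemias 2, 4, 6 and 8, against 1271 to 1634 in thymocytes. That of 14 dendritic cell markers, which include MHC class II genes, was 6275, 8609, 11803 and 11401 in the first 4 of these leukemias and 6862, 3192, 4788 and 4187 in the others, against 3128 to 4167 in thymocytes. That of 11 B-cell markers was 3281, 3011, 2846 and 3680 in leukemias 1, 3, 5 and 7 and 3402, 3199, 2748 and 2928 in the others, against 2691 to 3049 in thymocytes. The 2 sets of leukemias overlapped in the dendritic cell and B-cell sums. They did not in the macrophage sums, where leukemias 1 and 2 were close (1762 and 1733). None of the 14 macrophage, 14 dendritic cell or 11 B-cell markers passed the group test with all arrays, and 4 dendritic cell markers rose when leukemia 4 was left out and 2 when leukemia 8 was. In the same way 1 macrophage marker rose without leukemia 1, 4 or 6, and 1 B-cell marker without leukemia 4 or thymocyte array 4. The macrophage marker Adgre1 was near the control level in both groups, unlike the dendritic cell markers Itgax and Flt3. Fscn1, a marker of the mature dendritic cells that carry Ccr7, read 8.51 to 9.24 in leukemias and 8.77 to 8.84 in thymocytes. The part of these cells in the Ccr7 levels was not tested. The ligand genes Ccl19 and Ccl21a of Ccr7 were not analysed here.

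Counted together, 3 of the 4 genes fell, 0 rose and 1 did not pass. Over all genes 17.3% passed the test (5.41% higher and 11.9% lower in leukemia). The groups were separate, with every leukemia below every thymocyte array, for these 3 genes and for 8.11% of all genes. The genes were picked with earlier results of these data known, so their count is a description.

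Among the other chemokine receptors no group difference passed. Of 21 receptor genes measured, Ccr9 and Cxcr4 fell, 0 rose and 19 did not pass (9.52% called, beside 17.3% over all genes). The median log2 difference was 0.05, against 0.0037 over all genes. The larger differences that did not pass were those of Ccr4 (0.41, SE 0.17), Cxcr5 (0.47, SE 0.21), the effector T-cell receptor gene Cxcr3 (0.53, SE 0.26) and Ccr2 (0.72, SE 0.42), the last chosen after its values were seen. Ccr4, a receptor of maturing and helper T cells, read 6.98 to 8.11 in leukemias and 7.09 to 7.31 in thymocytes, so that 6 leukemias were above every thymocyte array. Cxcr3 read 7.31, 6.48, 6.70 and 7.26 in leukemias 1, 3, 5 and 7 and 6.18, 5.82, 5.90 and 6.27 in leukemias 2, 4, 6 and 8. In thymocytes it read 5.88 to 6.06. When leukemia 7 was left out 1 receptor rose, Ccr4 (0.50), which passed in 4 of 21 alternatives.

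**Figure D3:**
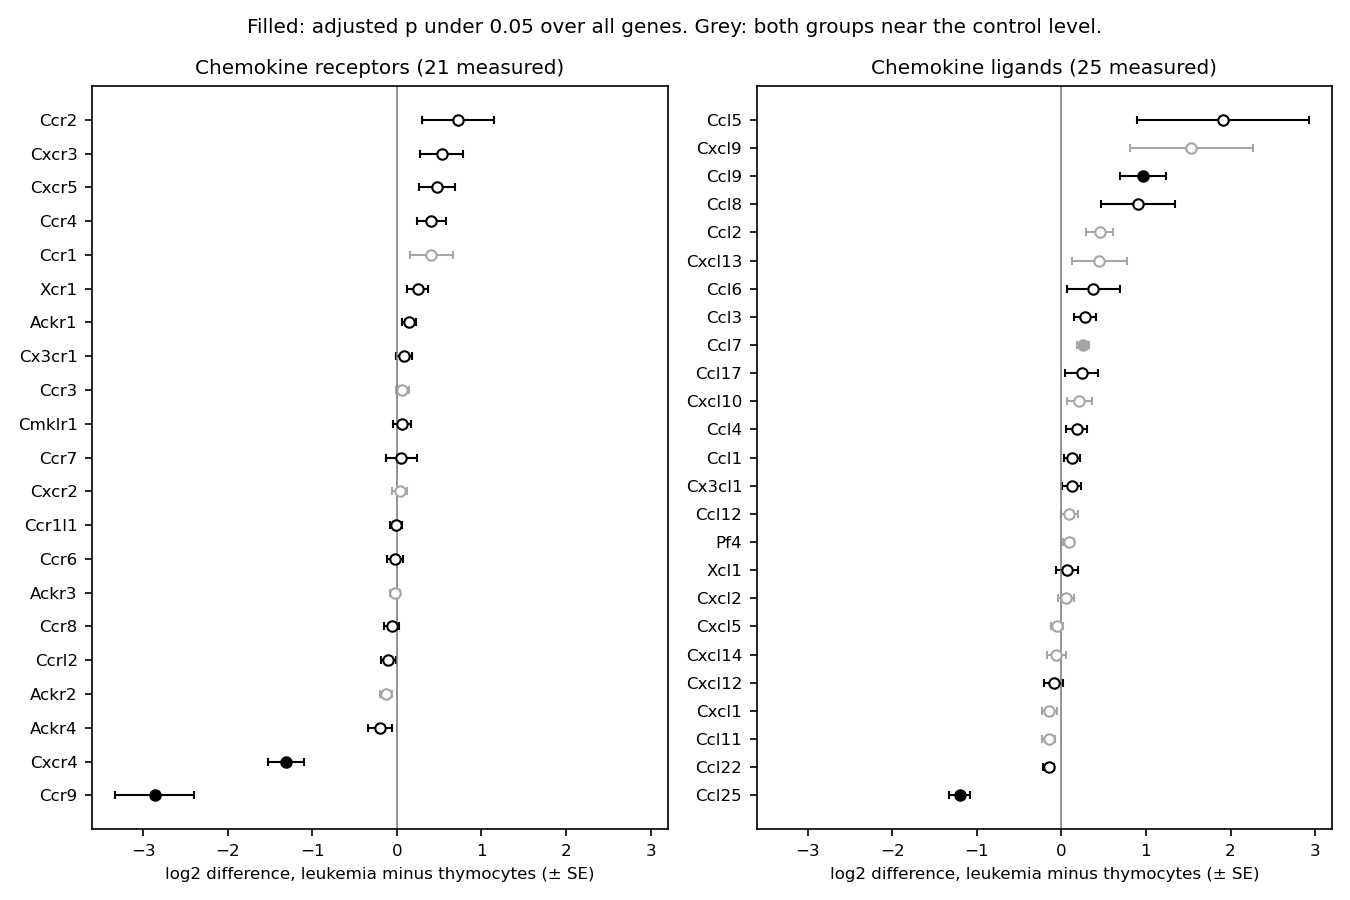
Log2 difference, TEL-JAK2 leukemia minus wild-type thymocytes, with its SE, for the 21 chemokine receptor genes (left) and 25 chemokine ligand genes (right) measured. Filled points passed an adjusted p under 0.05 over all genes. Grey points were near the control level in both groups by their group means, Cxcl9 among them. Ccr9, Cxcr4 and Ccl25 are the filled points left of 0, and Ccl9 and Ccl7 are those to the right.

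Of 25 ligand genes measured, Ccl25 was the 1 that fell, 2 rose and 22 did not pass (12% called, beside 17.3% over all genes). By their group means 12 of the 25 were near the control level in both groups. Cxcl9, 1 of these 12, read 7.08, 6.59 and 7.43 in leukemias 3, 5 and 7. These values were above the control percentiles of those arrays (5.46, 5.27 and 5.20). In leukemias 1, 2, 4, 6 and 8 Cxcl9 read 3.55 to 5.39, against 3.47 to 3.81 in thymocytes. Its group difference (1.54, SE 0.73) did not pass. The rises were those of the macrophage chemokine gene Ccl9 (at least 1.49-fold, log2 difference 0.96, SE 0.27, limma adjusted p = 0.0268 over all genes) and of Ccl7 (0.25), which was near the control level in both groups. Neither passed without thymocyte array 1 or without thymocyte array 2, where 0 ligands rose. There was 1 ligand that rose without leukemia 5, thymocyte array 3 or thymocyte array 4, and there were 3 without leukemia 4 or leukemia 6. Ccl5, a ligand made by effector T cells and chosen here after its values were seen, had the largest SD among leukemias of the 25 (2.28). It read 11.74, 9.99, 10.32 and 11.02 in leukemias 1, 3, 5 and 7 and 6.95, 5.88, 6.35 and 7.80 in leukemias 2, 4, 6 and 8, against 6.39 to 7.12 in thymocytes. Its group difference (1.91, SE 1.02) did not pass.

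Downstream of the receptors, 32 genes of G-protein signalling and its shut-off were measured, of which 3 rose, 5 fell and 24 did not pass, with a median of -0.0011. This is 25% called, beside 17.3% over all genes. Among regulators that end G-protein signals, 3 fell and Rgs19 rose (0.35), on a probe set marked for possible cross-hybridization. Those that fell were Rgs2 (at least 1.07-fold), Rgs10 (-0.77, SE 0.16) and Rgs14 (-0.67, SE 0.15). With 1 array left out the count that fell was 2 to 7, with 2 without thymocyte array 1, 3 without thymocyte array 2 or leukemia 3, 5 or 8, and 7 without thymocyte array 4. The PI3-kinase subunit gene Pik3cd rose 2.01-fold (SE 0.21 on the log2 scale), as did the small GTPase gene Rac2 1.43-fold (SE 0.09). Both were above every thymocyte array in each leukemia, as were 347 of all 8251 genes. The inhibitory subunit gene Gnai2, through which all 3 receptors signal, was 12.07 ± 0.08 (SD, n = 8) in leukemias and 12.27 ± 0.07 (SD, n = 4) in thymocytes (log2 difference -0.20, limma adjusted p = 0.0463 over all genes), and its probe set is marked for possible cross-hybridization.

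Of 13 genes of thymic exit and tissue homing measured, Ccr7 included, 3 rose, 1 fell and 9 did not pass (30.8% called, beside 17.3% over all genes). With 1 array left out, 4 rose without leukemia 1, 2 or 8, and 2 fell without leukemia 4 or 7. The selectin ligand gene Selplg rose (1.01, SE 0.08) and was 11.52 to 11.95 in leukemias, against 10.57 to 10.79 in thymocytes. The gut-homing integrin subunit gene Itgb7 (1.84, SE 0.29) and Itgae (1.32, SE 0.28), whose product pairs with that of Itgb7, also rose, without overlap between the groups. Itga4, the other integrin subunit gene of the list, did not pass (-0.52, SE 0.26) and was near the control level in leukemias. Plxnd1, a semaphorin receptor that directs thymocytes to the medulla and is also 1 of the 13 double-positive genes, fell (-1.67, SE 0.26). The sphingosine phosphate receptor gene S1pr4 was above the thymocyte range in every leukemia, as were 347 of all 8251 genes. S1pr4 missed the test (0.76, SE 0.26, limma adjusted p = 0.0561 over all genes) and passed in 6 of 21 alternatives. S1pr1, the main exit receptor, was near the control level in both groups on its probe set.

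Klf2, a transcription factor of mature, exiting T cells, and the genes Gimap4 and Il7r were looked at after their values were seen, and none passed the test. Klf2 read 8.48, 7.66, 7.95 and 8.21 in leukemias 1, 3, 5 and 7 and 7.13, 7.04, 6.94 and 7.34 in leukemias 2, 4, 6 and 8, against 7.06 to 7.26 in thymocytes. Gimap4, a GTPase of lymphocyte survival, read 11.72, 10.60, 10.91 and 11.39 and then 9.12, 8.54, 7.87 and 9.51 in the same 2 sets of leukemias, against 8.79 to 9.47 in thymocytes. The 4 leukemias with Ccr7 above the thymocyte range were the 4 highest in Klf2 and Gimap4, but not in Il7r. As these genes were chosen with their values in view, this is a description, and the share over all genes was not counted. Il7r read 6.85, 4.84, 6.00 and 5.20 and then 4.63, 4.08, 4.07 and 4.86 in the same 2 sets, which overlapped. In thymocytes Il7r read 5.24 to 6.18, and its leukemia mean was near the control level. Leukemia 1, with Ccr9 at the control level, had the highest Klf2, Gimap4, S1pr4 (9.01) and interleukin-7 receptor Il7r (6.85) of the 8.

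**Figure D4:**
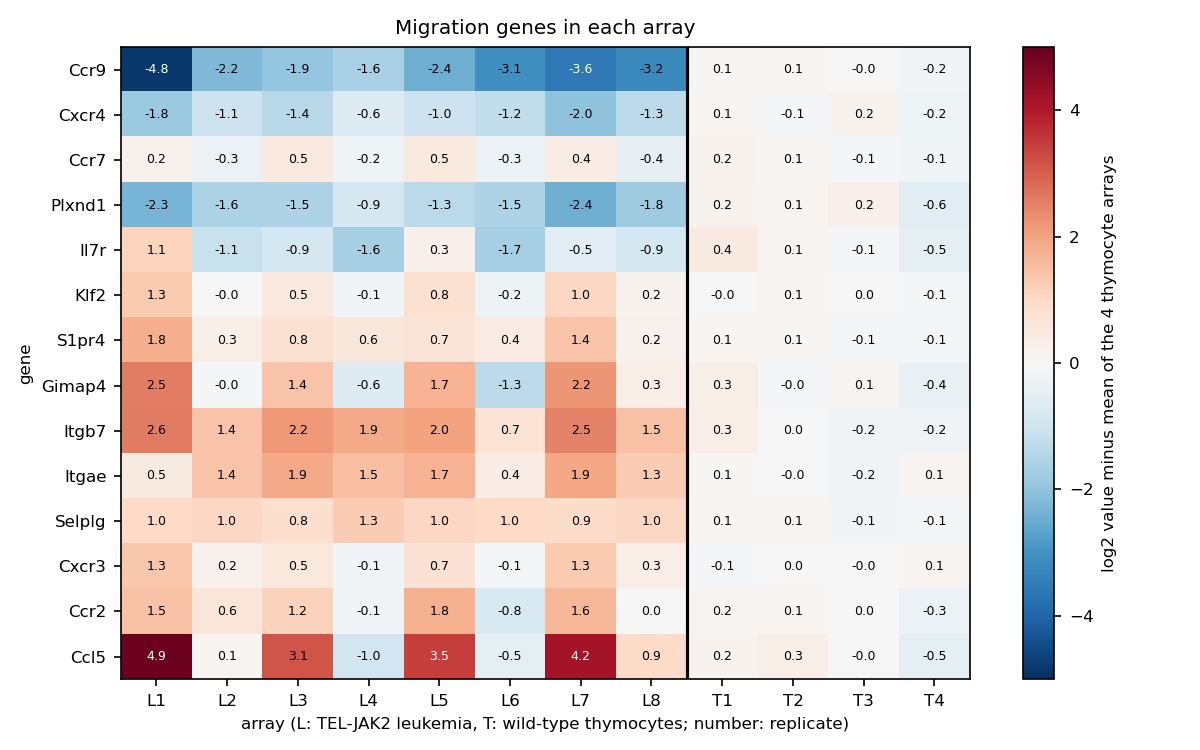
Log2 value of 14 genes of migration in each array minus the mean of the 4 thymocyte arrays, with TEL-JAK2 leukemias L1 to L8 left of the line and wild-type thymocytes T1 to T4 right of it. Ccr9, Cxcr4 and Plxnd1 are below 0 in all leukemias and Itgb7, Itgae, Selplg and S1pr4 above 0. Ccr7, Klf2, Gimap4, Ccl5, Itgb7, S1pr4, Cxcr3 and Ccr2 are higher in L1, L3, L5 and L7 than in the other leukemias.

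The genes most like each member over the 12 arrays were sought by the root mean square difference of log2 values centred on each gene's mean. For Ccr9 they were the transcription factor gene Ets2 (0.56), Rmnd5a (0.56), a subunit of a ubiquitin ligase, and Rag2 (0.57), all 3 lower in leukemia. In leukemia 1 Ets2 was 6.60 and Rag2 5.29, against 6.74 to 7.75 and 5.43 to 6.84 in the other leukemias, whereas Ccr9 was 4.97 there and 6.23 to 8.16 in the others. For Cxcr4 they were Lrrc58 (0.15), the chromatin remodeler gene Chd1 (0.16) and the stress-response gene Sesn1 (0.17), and among leukemias all were lowest in leukemia 1 and highest in leukemia 4. None are given for Ccl25, most of whose leukemia values were under the control percentile. Ccr7 varied too little over the arrays (SD 0.32) for the search, which asked for 0.5.

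**Figure D5:**
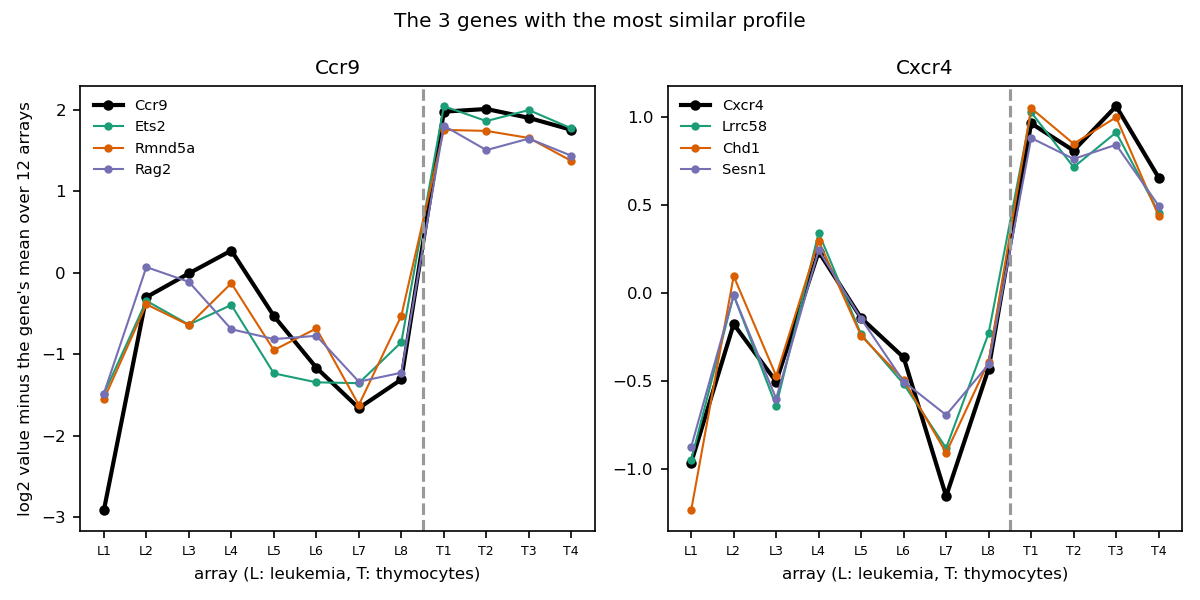
Log2 value minus the gene's own mean over 12 arrays for Ccr9 and Cxcr4 (black) and the 3 genes with the smallest root mean square difference from each (colours), with TEL-JAK2 leukemias L1 to L8 left of the dashed line and wild-type thymocytes T1 to T4 right of it. Lines only join the points of a gene. Ccr9 lies below its 3 companions in L1, and the Cxcr4 companions share its high value in L4.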

How the data were processed

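RNA from 12 thymus cell suspensions was hybridized to Affymetrix arrays. The authors deposited intensities made with RMA, per the submitters' processing notes, on a linear scale. The sources used here give neither the RMA version nor a genome build. The array medians (66.48 to 70.18) were alike, so the deposited intensity was only converted to log2, without an offset. After removal of 66 control probe sets 12422 were tested, and for each of 8251 genes the brightest probe set by its mean over all arrays stood for the gene. By the platform annotation 10833 probe sets had a single gene, 396 had several and 1193 had none. Of the single ones 10817 matched RefSeq GRCm38.p6.

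The log2 values were fitted with limma 3.58.1 (lmFit and eBayes, without covariates) under R 4.3.3. Calls were two-sided, with Benjamini-Hochberg adjustment and a threshold of 0.05, across probe sets for the members and across genes for the lists. "Near the control level" means a group mean under the mean 95th percentile of 19 non-mouse control probe sets, and a fold from 1 such group is a lower bound. The number of arrays limits the precision. Replicates are numbered in the order of deposit. The model was tested on simulated data with independent arrays and, for each probe set, the same SD in both groups. The unequal spread of the groups seen here was not simulated. Named genes are the members, up to 6 genes of each pathway list and up to 3 of each marker list with the largest statistic, the first 4 measured markers of each list, and 3 genes of similar profile for members with an SD of at least 0.5 (not given for Ccl25, near the control level in leukemias). Any other gene was picked with its values in view. The 12 lists held 232 genes, 182 of them measured. Members and lists were chosen with earlier results of these data known. The title-number comparison among leukemias, the correlations and the list counts with 1 array left out were added after the data were seen, and the genes drawn in the heat map were chosen then. The correlation within title-number groups was added later too. Alternatives covered normalization, dim probe sets, the variance model, array weights, the title number, treat, cross-hybridization and each array left out.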

Additional observations from a re-analysis of the deposited data

Results flagged for a closer look

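Among 160 groups of arrays examined for a sample that stands apart, 6 were found, where chance gives about 1 in 20. None concerns Ccr9, Cxcr4, Ccr7 or Ccl25. Thymocyte array 4, the 1 without a title number, was lowest in Plxnd1 (8.68, next 9.38) and in Ms4a1 (6.15, next 6.42) and highest in Thy1 (12.30, next 12.14). Thymocyte array 3 was highest in Col1a1 (7.24, next 7.04). Leukemia 8 was lowest in Cd3e (10.22, next 10.88), and leukemia 5 was highest in Pdgfrb (5.95, next 4.85).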

How the results depend on the processing

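The differences of Ccr9, Cxcr4 and Ccl25 stayed below 0 in every alternative run, from -3.52 to -2.10, -1.41 to -1.09 and -1.39 to -0.94. They missed the threshold in the arrays without a title number of 4 digits, with 1 thymocyte array assumed to vary like the leukemias (-3.52, -1.39 and -0.94, where 13 probe sets passed), and Cxcr4 also missed it under treat (-1.31, adjusted p = 0.149, where 128 probe sets passed). The exact permutation test gave p = 0.00202, its smallest possible value, for each of the 3 genes and p = 0.790 for Ccr7. With 1 array left out at a time the differences were -3.04 to -2.58 for Ccr9, -1.41 to -1.21 for Cxcr4, -1.26 to -1.12 for Ccl25 and -0.011 to 0.12 for Ccr7. Ccr7 passed under no alternative, and its sign turned without leukemia 3 (-0.011) or leukemia 5 (-0.011). The probe sets that passed numbered 1805, against 3400 with array weights and 1162 to 2044 with 1 array left out (1162 without thymocyte array 1, 1185 without thymocyte array 2). The cause was not tested, beside the fewer arrays of the smaller sets. Ccl25 is among the dimmer probe sets and has no value in the brighter part. Of 76 other named genes, 28 lost and 19 gained significance in some alternative, and 12 turned sign, none past the threshold. The turned values were, under quantile normalization Col1a2 (0.059) and Cd79b (0.050), under centring on the median Foxn1 (0.000185) and Col1a2 (0.0057), under array weights Cd3g (0.051) and Foxn1 (0.058). They were, under the title-number block Col1a2 (0.033) and Cd79b (0.057), in the 4-digit titles Cd3g (0.17), Foxn1 (0.035), Krt14 (-0.013), Col1a1 (-0.072), Col1a2 (0.083) and Cd79b (0.12), in the other titles Krt5 (-0.032), Pdgfra (-0.018), Pdgfrb (-0.071), Dcn (0.66) and Fscn1 (-0.046). With 1 array left out the turned genes ran from -0.18 to 0.089 for Cd79b, -0.032 to 0.073 for Fscn1, -0.020 to 0.089 for Adgre1, -0.14 to 0.090 for Col1a2, -0.043 to 0.022 for Foxn1, -0.010 to 0.092 for Col1a1, -0.011 to 0.13 for Krt5 and -0.12 to 0.049 for Cd3g. Other probe sets of the members could not be tried, since each gene has 1. No paired analysis was possible because the titles give the groups no shared replicate numbers.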
